A study of Mus musculus with 12 samples.

Results

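The genes described here belong to the polyol, fructose and inositol routes of the kidney. The 6 listed were Akr1b3, Akr1b8, Sord, Khk, Slc5a3 and Miox. Members were taken by symbol, from probe sets annotated to 1 gene only, with the highest-mean probe set standing for the gene. By this rule 4 of the 6 could be measured (Akr1b8, Khk, Slc5a3 and Miox, 1 probe set each, 10537146, 10520612, 10436945 and 10426213), among 19936 genes with such a probe set in the whole table. Akr1b3, the aldose reductase gene, and Sord, the sorbitol dehydrogenase gene, had no probe set under their names and were not analysed here, so the classical first and second steps of the polyol pathway carry no value in what follows.

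The polyol pathway turns excess glucose into sorbitol by aldose reductase and then into fructose by sorbitol dehydrogenase. Ketohexokinase, the product of Khk, phosphorylates fructose in the proximal tubule. Myo-inositol, an osmolyte like sorbitol, is brought into cells by the sodium-coupled transporter encoded by Slc5a3, and Miox, an oxygenase found mainly in the proximal tubule, breaks it down to glucuronate. In diabetes the kidney handles a high glucose load, and these routes have long been studied in that setting.

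Kidney RNA of 6-month-old mice was measured on 12 arrays, 1 per mouse and 3 per group. OVE-D6 mice were diabetic D6 knockouts, OVE mice were diabetic and carried D6, D6 mice were knockouts without diabetes, and FVB mice, the background strain of all groups, had neither change. D6 is the chemokine-scavenging receptor encoded by Ackr2, and its deletion, carried in C57BL/6 mice, had been bred to FVB mice over at least 10 generations and then for 2 generations to OVE mice to give OVE-D6. OVE mice owe their diabetes to a calmodulin transgene driven by the insulin promoter in pancreatic beta cells. The labels give no sex, and Xist, the RNA of the inactive X chromosome, lay between 12.53 and 12.87 on all arrays while 3 Y-linked genes stayed at or under 5.33. Values are log2 probe-set summaries, on which probe sets of different genes cannot be compared with each other, and the small number of arrays limits the precision.

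Markers of kidney were present in every group, with the 11 proximal tubule markers averaging 11.67 to 12.06 per array. Among the 11, Slc7a13 was dim, with group means from 5.46 in OVE to 6.21 in FVB mice. Ackr2 lay between 6.74 and 7.04 on the 12 arrays and differed by -0.10 ± 0.08 (SE) between D6 and FVB mice (limma adjusted p = 1) and by 0.03 ± 0.08 between OVE-D6 and OVE mice (adjusted p = 0.899). No source used here says whether its probes fall within the deletion, and if they do not, these values are no test of the knockout. OVE replicate 3 stood at 6.9 on the first principal component of all tested genes, against 27.0 and 29.4 for the other OVE arrays and -15.1 to 5.2 for the other 9. OVE-D6 replicate 3 carried adrenal cortex markers at a mean of 8.04 over 6 genes, against 5.13 to 5.70 on the other 11 arrays. Results that change without OVE replicate 3 or OVE-D6 replicate 3 are given with and without it. Fat markers averaged 8.26 and 7.49 over 5 genes on FVB replicates 2 and 3, against 6.10 to 7.19 on the rest. Ucp1, one of the 5, was at 10.09 and 8.29 on those arrays, against 4.86 to 7.02 on the rest. The part of adhering fat in the results was not tested.

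The promoters of Akr1b8 and Miox are shown because these were the 2 of 4 members called in any comparison, both of them in the diabetes effect averaged over genotype, where 7.65% of all tested genes were called. Both are RefSeq sequences of build GRCm38.p6, the C57BL/6J reference and not the FVB strain, and each runs from 250 bases before to 50 bases after the gene's start. Akr1b8 lies on the plus strand at chr6:34353896-34354195 and Miox on the plus strand at chr15:89334223-89334522. Capitals mark a match to 1 of the 3 motifs searched on both strands.
Akr1b8: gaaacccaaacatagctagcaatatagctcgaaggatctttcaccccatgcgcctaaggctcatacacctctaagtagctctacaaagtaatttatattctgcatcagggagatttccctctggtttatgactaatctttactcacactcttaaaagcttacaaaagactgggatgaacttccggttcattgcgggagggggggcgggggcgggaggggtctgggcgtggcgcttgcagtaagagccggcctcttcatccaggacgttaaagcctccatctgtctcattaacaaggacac
Miox: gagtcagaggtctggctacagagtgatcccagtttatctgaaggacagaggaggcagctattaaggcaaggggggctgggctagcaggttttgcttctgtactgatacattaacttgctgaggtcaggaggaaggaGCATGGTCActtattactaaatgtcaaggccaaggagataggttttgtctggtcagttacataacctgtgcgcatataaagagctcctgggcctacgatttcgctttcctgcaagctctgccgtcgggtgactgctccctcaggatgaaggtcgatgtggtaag
The motifs were TGGAAA, the core of the tonicity element through which Nfat5 raises osmolyte genes, TGACNNNGC, the core of the antioxidant response element, and CACGTG, an E box found in carbohydrate response elements. They do not overlap in these windows. They occurred in 21.4%, 12.4% and 7.2% of 32851 promoters of the same length. The Akr1b8 window held none of them. The Miox window held 1 antioxidant core on the minus strand, whose leftmost base lies at position -114 (capitals above). Of the other 3 members with a promoter entry, Khk held 1 CACGTG, and Sord and Slc5a3 held no match. A match is a string of letters and not a site in use, and no match says only that the letters are absent from this window.

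Akr1b8 was the member with the clearest difference. It encodes an aldo-keto reductase close to aldose reductase, first described in mouse as a protein regulated by fibroblast growth factor. Its log2 values were 6.46, 6.97 and 6.29 in OVE kidneys, against 5.39, 5.74 and 5.62 in FVB kidneys. All 3 OVE arrays lay above all 3 FVB arrays. The gene rose by 0.99 ± 0.18 on the log2 scale in OVE mice (SE, n = 3 per group, 95% interval 0.59 to 1.39, adjusted p = 0.01 by limma over 16480 genes). That is 1.98-fold, in a comparison where 7.28% of genes were called, and 1.14% of tested genes had a larger absolute difference. The call held in each of the 22 alternatives in which the gene was tested, with differences from 0.79 to 1.13. Akr1b8 is a dim gene, ranking between the 20.3 and 43.5 percentiles of genes on the arrays. Its means of 5.86 in OVE-D6, 5.72 in D6 and 5.58 in FVB mice lay below 5.94, a background level set by 1027 olfactory receptor genes (their 95th percentile), for which the kidney has little use. The size of the fold is therefore uncertain.

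**Figure D1:**
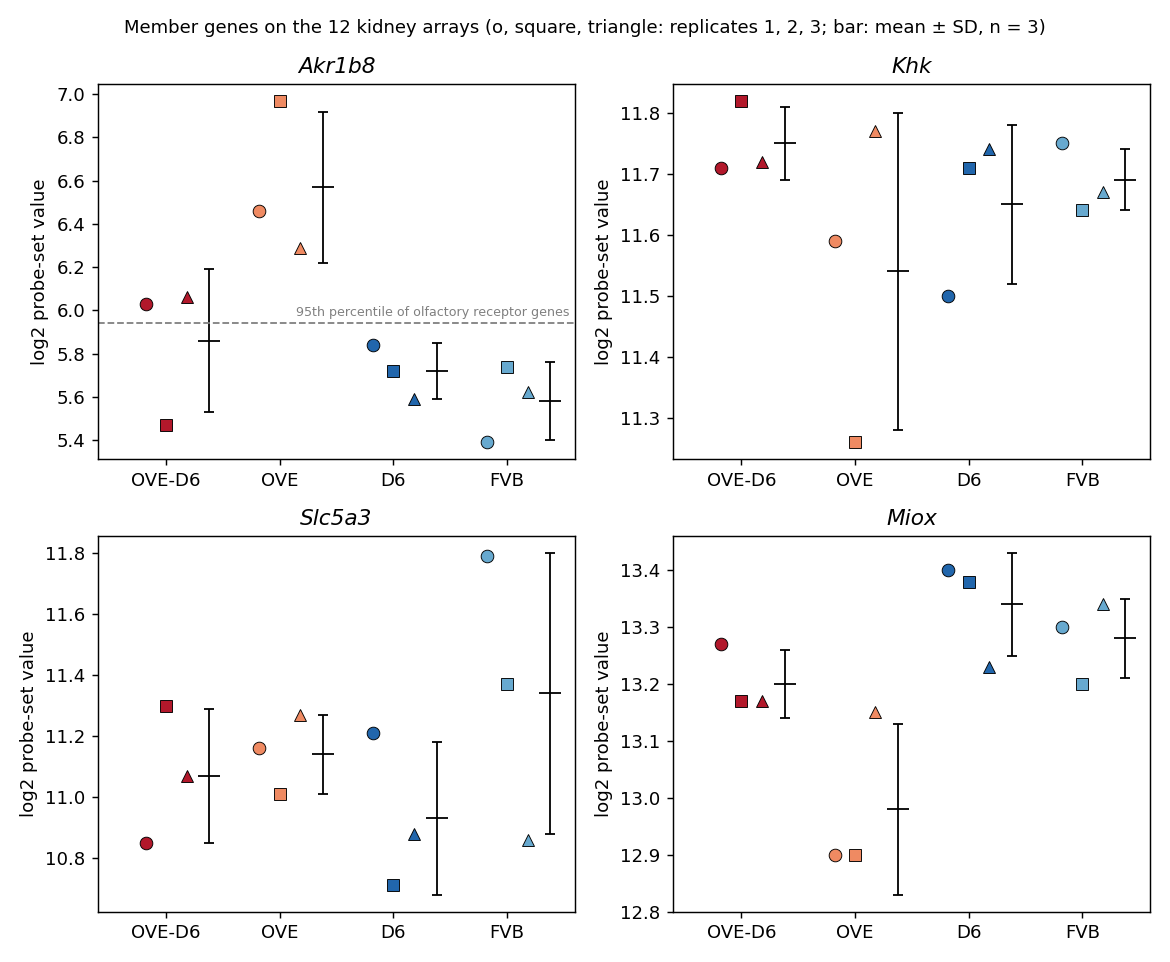
Log2 probe-set value (y axis, a separate scale per gene) of each measured member on each array, by group (x axis), with the mean and SD of the 3 mice beside the points and, for Akr1b8, the 95th percentile of olfactory receptor genes at 5.94 as a dashed line. The 3 OVE arrays stand above every other array for Akr1b8 (6.29 and up, against at most 6.06) and at or under 13.15 for Miox, below the other 9.

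In knockouts Akr1b8 was not called. The OVE-D6 values were 6.03, 5.47 and 6.06, against 5.84, 5.72 and 5.59 in D6 kidneys. The groups overlapped, and the difference was 0.14 ± 0.18 (95% interval -0.26 to 0.54, adjusted p = 0.854). Set against OVE, all 3 OVE-D6 arrays were lower, and the difference was -0.71 ± 0.18 (95% interval -1.11 to -0.32, limma adjusted p = 0.129), which did not pass over all genes. Without OVE replicate 3 that difference was -0.86 (adjusted p = 0.0277), without both that array and OVE-D6 replicate 3 it was -0.96 (adjusted p = 0.0288), and without OVE replicate 2 it was -0.52 (adjusted p = 0.396). The interaction, which takes the OVE minus FVB difference from the OVE-D6 minus D6 difference, was -0.85 ± 0.26 (95% interval -1.41 to -0.28, adjusted p = 0.318), so a difference in response between the genotypes was not established over all genes. Between D6 and FVB mice Akr1b8 differed by 0.13 ± 0.18 (95% interval -0.27 to 0.53, adjusted p = 1). By mean the groups ran OVE (6.57 ± 0.35, SD), OVE-D6 (5.86 ± 0.33), D6 (5.72 ± 0.13) and FVB (5.58 ± 0.18), and each of the last 3 overlapped its neighbour. Averaged over genotype, Akr1b8 rose by 0.56 ± 0.13 in diabetes (n = 6 per side, adjusted p = 0.023). That call ended without FVB replicate 1, D6 replicate 2, D6 replicate 3, OVE-D6 replicate 1 or OVE-D6 replicate 3 (adjusted p = 0.0529, 0.0506, 0.0531, 0.0523 and 0.0609).

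Markers of tubular injury and of macrophages stood high on the same arrays as Akr1b8. The summed log2 level of 7 tubular injury markers was 50.6 to 55.6 in OVE-D6, 59.2 to 67.6 in OVE, 50.6 to 51.6 in D6 and 49.3 to 50.7 in FVB mice, and 5 of 7 rose in OVE over FVB, beside 4.9% of all tested genes. Its highest array, OVE replicate 2, was also the highest for Akr1b8. The summed level of 10 macrophage and monocyte markers was 76.4 to 78.7 in OVE-D6, 81.7 to 91.6 in OVE, 77.3 to 79.9 in D6 and 74.0 to 77.0 in FVB mice, and 9 of 10 rose in OVE over FVB, beside the same 4.9%. No marker stands at 0 on this scale. Their part in the Akr1b8 result was not tested, and in whole kidney a change in the number of cells of a type cannot be told apart from a change in RNA per cell.

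**Figure D2:**
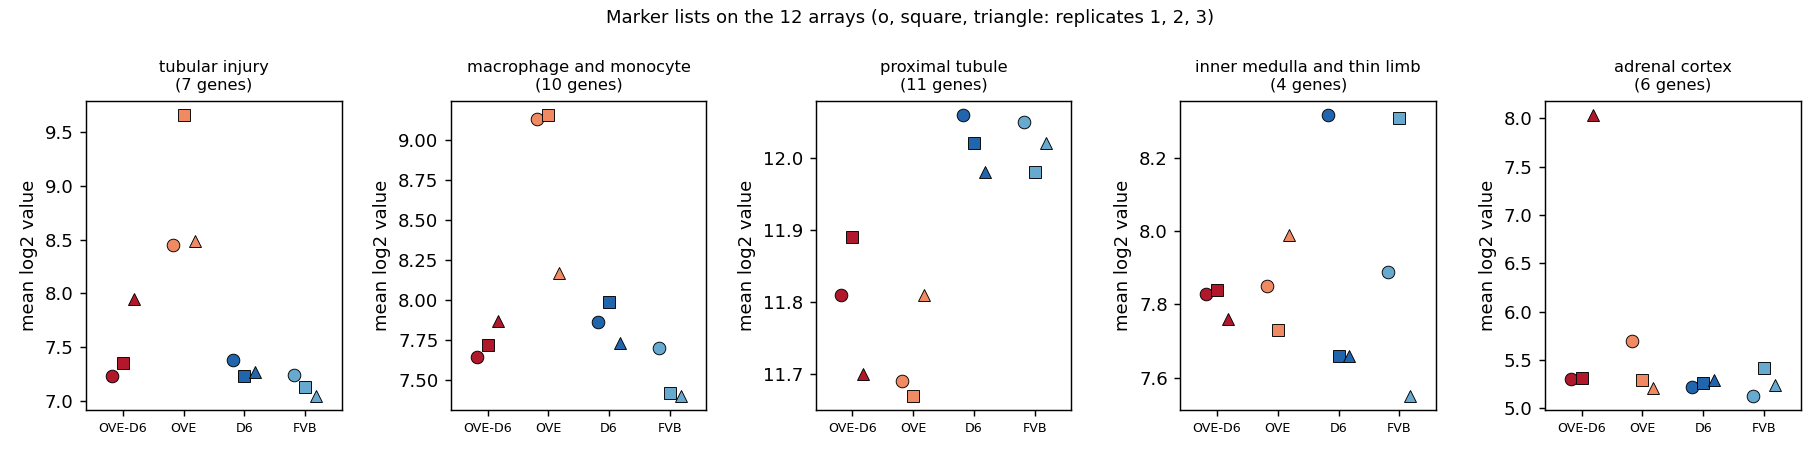
Mean log2 value (y axis) of each marker list on each array, by group (x axis), with 1 symbol per replicate. The 3 OVE arrays lie highest for the injury (8.45 to 9.66) and macrophage lists (8.17 to 9.16), the 6 diabetic arrays lie lowest for the proximal tubule list (11.67 to 11.89), and OVE-D6 replicate 3 stands alone for the adrenal list at 8.04. The proximal tubule list leans on Kap (-1.13 in OVE against FVB and -1.37 in OVE-D6 against D6).

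Akr1b8 lies in a cluster of related genes on chromosome 6, beside Akr1b3, Akr1b7 and Akr1b10. Akr1b10 was lower in diabetes, opposite in direction to Akr1b8. Its values were 8.38, 8.31 and 7.99 in OVE-D6 kidneys, against 8.68, 8.58 and 8.70 in D6 kidneys, and 8.46, 8.31 and 8.45 in OVE kidneys, against 8.59, 8.61 and 8.72 in FVB kidneys. Neither pair of groups overlapped, as for 16.4% of all tested genes in knockouts and 27.1% in wild types. Averaged over genotype it fell by 0.33 ± 0.07 (n = 6 per side, limma adjusted p = 0.0158), and it passed in neither genotype alone (-0.43, adjusted p = 0.114 in knockouts, and -0.23, adjusted p = 0.173 in wild types). Close relatives can share probe signal, so the split between these genes is uncertain, and a pseudogene overlapping Akr1b8 in the gene table adds to that.

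Khk, whose product commits fructose to breakdown, was close to level across the 4 groups. Its values were 11.71, 11.82 and 11.72 in OVE-D6, 11.59, 11.26 and 11.77 in OVE, 11.50, 11.71 and 11.74 in D6, and 11.75, 11.64 and 11.67 in FVB kidneys. OVE replicate 2 was the lowest array, and every pair of neighbouring groups overlapped. The difference was -0.15 ± 0.11 between OVE and FVB mice (95% interval -0.39 to 0.10, adjusted p = 0.472) and 0.10 ± 0.11 between OVE-D6 and D6 mice (95% interval -0.15 to 0.35, adjusted p = 0.829). It was 0.21 ± 0.11 between OVE-D6 and OVE (95% interval -0.04 to 0.46) and -0.04 ± 0.11 between D6 and FVB (95% interval -0.28 to 0.21), with adjusted p = 0.418 and 1 by limma. The averaged diabetes effect was -0.02 ± 0.08 (95% interval -0.20 to 0.15) and the interaction 0.25 ± 0.16 (95% interval -0.10 to 0.60), with adjusted p = 0.895 and 0.665. The interaction had the widest of these intervals, and the other 5 stayed within 0.46 on either side of 0.

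Slc5a3, the myo-inositol transporter of the hypertonic medulla, varied widely between mice of the same group, and no comparison passed. Its values were 10.85, 11.30 and 11.07 in OVE-D6, 11.16, 11.01 and 11.27 in OVE, 11.21, 10.71 and 10.88 in D6, and 11.79, 11.37 and 10.86 in FVB kidneys. The FVB arrays alone ran from 10.86 to 11.79, nearly the whole range over the 12 arrays, and each group overlapped its neighbours. Its pooled SD within groups was 0.294, above that of 95.8% of tested genes, whose median was 0.123. The difference was -0.20 ± 0.20 between OVE and FVB (95% interval -0.63 to 0.24, adjusted p = 0.596) and 0.14 ± 0.20 between OVE-D6 and D6 (95% interval -0.30 to 0.58, adjusted p = 0.871). It was -0.07 ± 0.20 between OVE-D6 and OVE (95% interval -0.51 to 0.36, adjusted p = 0.904). The interaction was 0.33 ± 0.29 (95% interval -0.28 to 0.95, adjusted p = 0.768) and the averaged diabetes effect -0.03 ± 0.14 (95% interval -0.34 to 0.28, adjusted p = 0.926).

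Between D6 and FVB mice Slc5a3 differed by -0.41 ± 0.20 (95% interval -0.85 to 0.03, limma adjusted p = 1). Only 1.12% of tested genes had a larger absolute difference in that comparison, but the value was -0.18 without FVB replicate 1 and -0.65 without FVB replicate 3. The summed level of 4 inner medulla and thin limb markers also varied between mice of a group, from 30.6 to 33.3 in D6 and from 30.2 to 33.3 in FVB, against 31.1 to 31.4 in OVE-D6 and 30.9 to 32.0 in OVE. D6 replicate 1, highest of its group for Slc5a3, was highest for these markers at 33.3, and FVB replicate 3, lowest of its group for Slc5a3, was lowest at 30.2. FVB replicate 1, highest for Slc5a3, was not highest for the markers, at 31.6. The part of medulla content in the spread was not tested. Slc5a3 overlaps Mrps6, a mitochondrial ribosomal protein gene, and signal from the overlap could belong to either. Mrps6 differed by -0.24 ± 0.15 between D6 and FVB (adjusted p = 1).

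Miox, the first enzyme of inositol breakdown, fell in diabetes in the average over genotype and passed in neither genotype alone. Its values were 12.90, 12.90 and 13.15 in OVE kidneys, against 13.30, 13.20 and 13.34 in FVB kidneys. The groups did not overlap, and OVE replicate 3 was the OVE array nearest to FVB. The difference was -0.30 ± 0.09 (95% interval -0.49 to -0.11, limma adjusted p = 0.055), just outside the threshold. Without OVE replicate 3 it was -0.39 (adjusted p = 0.0116). In knockouts the values were 13.27, 13.17 and 13.17 in OVE-D6 kidneys, against 13.40, 13.38 and 13.23 in D6 kidneys, and the groups overlapped (-0.14 ± 0.09, 95% interval -0.32 to 0.05, adjusted p = 0.661). Averaged over genotype Miox fell by 0.22 ± 0.06 in diabetes (n = 6 per side, 95% interval -0.35 to -0.09, adjusted p = 0.0493). This call ended without any 1 of 10 of the 12 arrays, with adjusted p up to 0.113, and held without D6 replicate 3 or OVE replicate 3. It also ended with no filter (adjusted p = 0.0608), with median centring (adjusted p = 0.0542) and with the replicate block (adjusted p = 0.0734).

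The OVE-D6 arrays lay above all OVE arrays for Miox, by 0.22 ± 0.09 (95% interval 0.03 to 0.41, adjusted p = 0.264), which did not pass. The interaction was 0.16 ± 0.12 (95% interval -0.10 to 0.43, adjusted p = 0.717), and D6 and FVB mice differed by 0.05 ± 0.09 (95% interval -0.13 to 0.24, adjusted p = 1). By mean the order was D6 (13.34 ± 0.09, SD), FVB (13.28 ± 0.07), OVE-D6 (13.20 ± 0.06) and OVE (12.98 ± 0.15). D6 overlapped FVB and FVB overlapped OVE-D6, while OVE-D6 did not overlap OVE. Miox ranked between the 99.7 and 99.9 percentiles of genes on the arrays, where signals near the top of an array may be compressed. The summed level of 11 proximal tubule markers was lower on the 6 diabetic arrays, at 128.7 to 130.8 in OVE-D6, 128.4 to 129.9 in OVE, 131.8 to 132.6 in D6 and 131.8 to 132.5 in FVB mice. By the test 3 of 11 were lower in OVE than in FVB, beside 2.38% of all tested genes. Those were Kap, an androgen-regulated kidney gene (-1.13), Slc7a13, an amino acid transporter gene (-0.75), and Lrp2, the megalin gene (-0.35), while Slc5a12 (0.05) and Aqp1 (0.04) did not pass. Slc7a13 lay under 5.94 in OVE-D6, OVE and D6 mice (means 5.63, 5.46 and 5.91) and at 6.21 in FVB mice. The size of its difference is therefore uncertain. In OVE-D6 against D6 none of the 11 passed, beside 0.285% of all tested genes, with Kap at -1.37 (limma adjusted p = 0.0738). Kap and Slc7a13 (-0.29) had the largest falls of the list in that comparison too, so the lower sums lean on them. The median difference of the 11 was -0.22 in OVE against FVB and -0.16 in OVE-D6 against D6. The OVE-D6 sums overlapped the OVE sums, and the Miox values of these groups did not overlap. Of the 11 markers, 8 were higher in OVE-D6 than in OVE, and none passed, beside 0.231% of all tested genes. Slc34a1 (0.16) and Slc5a2 (0.29) did not overlap between these groups either, beside 17.6% of all tested genes, and the rest overlapped. The part of these markers in the Miox result was not tested.

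**Figure D3:**
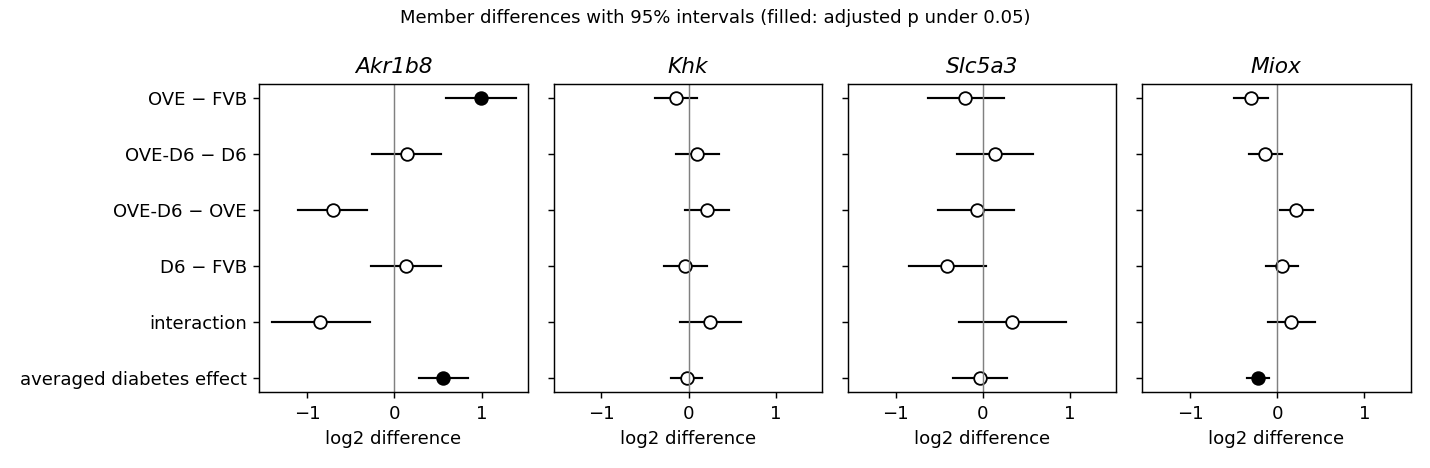
Log2 difference (x axis) of each measured member in the 6 comparisons (y axis), with its 95% interval as a line and a filled point where the adjusted p was under 0.05. Filled points are Akr1b8 in OVE against FVB (0.99) and, in the averaged diabetes effect, Akr1b8 (0.56) and Miox (-0.22), while all Khk and Slc5a3 intervals cross 0.

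Counted over the members, 1 of 4 rose and 0 fell in OVE against FVB, where 4.9% of all tested genes rose and 2.38% fell (7.28% in all). At an unadjusted p under 0.05 the count was 2, beside 24.1% of genes, and for 2 of 4 the groups did not overlap, beside 27.1%. The median difference was -0.17, against -0.018 over all tested genes. In OVE-D6 against D6 limma called 0 of 4, beside 0.285% of all genes. At an unadjusted p under 0.05 the count was 0, beside 9.98%, and 0 of 4 did not overlap, beside 16.4%. In OVE-D6 against OVE limma called 0 of 4, beside 0.231% (0.0485% higher and 0.182% lower). There 2 had an unadjusted p under 0.05, beside 14.8%, and 2 of 4 did not overlap, beside 17.6%. In D6 against FVB limma called 0 of 4, beside 0.0121%. There 0 had an unadjusted p under 0.05, beside 3.82%, and 0 of 4 did not overlap, beside 9.79%. For the interaction limma called 0 of 4, beside 0% of all genes, with 1 at an unadjusted p under 0.05, beside 9.99%. In the averaged diabetes effect 1 rose and 1 fell, where 4.49% of genes rose and 3.16% fell, and 2 had an unadjusted p under 0.05, beside 24%. With 4 genes these counts are too small to set apart from the background.

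Other genes of the same routes were read from 5 lists of 33 genes in all, of which 28 had a probe set and were tested. None of the 28 was called by limma in OVE against FVB or in OVE-D6 against D6, beside 7.28% and 0.285% of all tested genes. At an unadjusted p under 0.05 the counts were 6 and 8, beside 24.1% and 9.98%. In OVE against FVB 3 were called without OVE replicate 3, where 1901 of all 16480 tested genes were called. In the averaged diabetes effect 2 rose (Slc2a5 and Ugdh) and 1 fell (Akr1b10), where 4.49% of all tested genes rose and 3.16% fell. There 9 had an unadjusted p under 0.05, beside 24%. Whether these counts differ from the background was not tested. The count of 3 in the averaged effect became 5 without OVE replicate 3, where 1916 of all 16480 tested genes were called. The median over the 28 was 0.08, 0.06 and 0.04 in these comparisons, against -0.018, -0.007 and -0.011 over all tested genes.

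Fructose transport held the call nearest to Khk. Slc2a5 encodes GLUT5, the fructose transporter of the apical membrane, and its values were 10.00, 9.73 and 9.84 in OVE-D6 kidneys, against 9.54, 9.16 and 9.56 in D6 kidneys. In wild types they were 9.72, 9.63 and 9.53 in OVE kidneys, against 9.22, 9.25 and 9.29 in FVB kidneys. In each genotype every diabetic array lay above every non-diabetic one. The groups did not overlap for 16.4% of all tested genes in knockouts and 27.1% in wild types. Averaged over genotype Slc2a5 rose by 0.40 ± 0.08 (adjusted p = 0.0101), and the call held in all 22 alternatives. In the single genotypes it differed by 0.44 (adjusted p = 0.14) in knockouts and by 0.37 (adjusted p = 0.0567) in wild types, and these did not pass. Of the 6 tested genes of this list 1 rose and 0 fell in the averaged effect, beside 4.49% and 3.16% of all tested genes. Tkfc, the triokinase gene that acts downstream of Khk, differed by 0.24 ± 0.07 (adjusted p = 0.0651). Slc2a2, the basolateral GLUT2 gene, differed by 0.35 ± 0.14 (adjusted p = 0.137). Neither passed, and both were picked for mention after their values were seen.

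Of 7 genes of the glucuronate and xylulose route, which takes up the product of Miox, 1 rose and 0 fell in the averaged effect. In that comparison 4.49% of all tested genes rose and 3.16% fell. Ugdh, the UDP-glucose dehydrogenase gene, which feeds glucuronate into that route from glucose, had values of 11.08, 11.08 and 11.14 in OVE-D6 kidneys, against 10.35, 10.55 and 10.83 in D6 kidneys. They were 11.12, 10.71 and 10.74 in OVE kidneys, against 10.61, 10.56 and 10.42 in FVB kidneys. The diabetic and non-diabetic arrays did not overlap in either genotype, as for 16.4% of all tested genes in knockouts and 27.1% in wild types. The averaged effect was 0.42 ± 0.09 (adjusted p = 0.0163, held in all 22 alternatives), with 0.52 (adjusted p = 0.14) in knockouts and 0.32 (adjusted p = 0.146) in wild types. Tkt, the transketolase gene, also picked after its value was seen, differed by 0.26 ± 0.08 (adjusted p = 0.0609) in the averaged effect. Cryl1, Dcxr, Xylb, Rgn and Rpe had averaged differences between -0.07 and 0.10, and none passed.

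Of 6 tested genes of inositol transport and use none passed in any comparison by limma, beside 0% to 7.65% of all tested genes. At an unadjusted p under 0.05 the count was 0 to 2 by comparison, beside 3.82% to 24.1%. The smallest p of the list was that of Slc5a11, a second sodium-coupled inositol transporter gene, in the averaged effect (0.21 ± 0.07, adjusted p = 0.0872). Cdipt, the phosphatidylinositol synthase gene, had the smallest p of the list in OVE against FVB (0.29 ± 0.11, adjusted p = 0.122), and Slc5a11 had it in the comparison of OVE-D6 with D6 (0.27 ± 0.10, adjusted p = 0.333) and of OVE-D6 with OVE (0.27 ± 0.10, adjusted p = 0.227). Of 7 tested osmolyte genes none passed in any comparison by limma either, beside the same shares of all tested genes. Their count at an unadjusted p under 0.05 was also 0 to 2 by comparison. Slc6a12, the betaine transporter gene, was at 9.05 ± 0.16 (SD) in OVE-D6, 8.95 ± 0.62 in OVE, 8.32 ± 0.47 in D6 and 8.52 ± 0.55 in FVB mice, an averaged difference of 0.58 ± 0.23 (SE, adjusted p = 0.141). In OVE-D6 against D6 alone it differed by 0.73 (adjusted p = 0.471). Nfat5, the transcription factor that answers to hypertonicity, differed by -0.04 ± 0.05 in the averaged effect (adjusted p = 0.703), where its p was not the smallest of the list. In OVE against FVB the smallest p of the osmolyte list was that of Slc6a6, the taurine transporter gene (0.19 ± 0.12, adjusted p = 0.371).

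**Figure D4:**
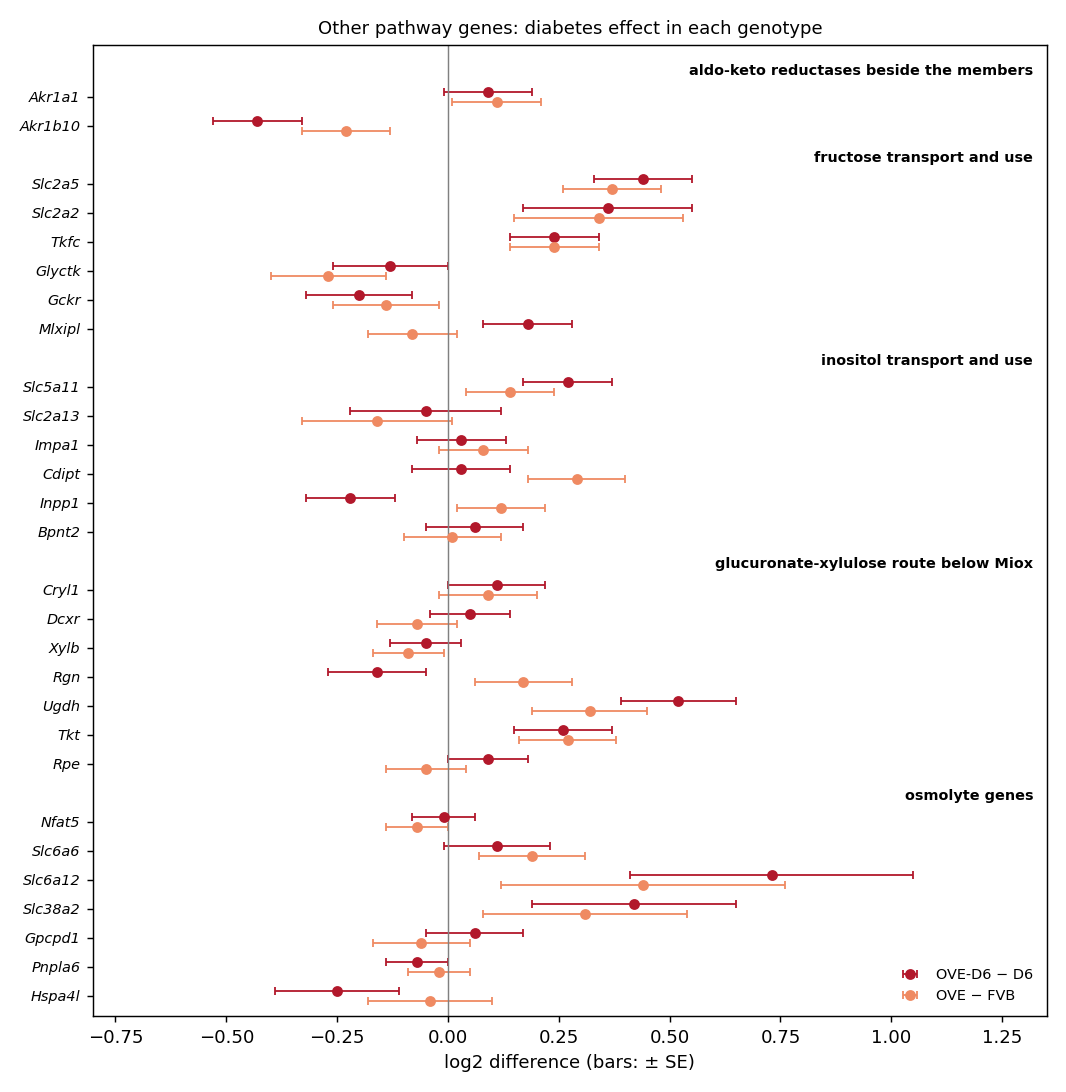
Log2 difference with its SE (x axis) of the 28 tested genes of the 5 lists (y axis), with OVE-D6 minus D6 in dark red and OVE minus FVB in orange. Slc2a5 (0.44 and 0.37) and Ugdh (0.52 and 0.32) lie right of 0 in both genotypes, Akr1b10 (-0.43 and -0.23) lies left, and Slc6a12 lies farthest right in knockouts (0.73, not passed).

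For loss of D6, limma called 0 of the 28 in OVE-D6 against OVE and 0 in D6 against FVB, beside 0.231% and 0.0121% of all tested genes. At an unadjusted p under 0.05 the counts were 1 (Slc5a11) and 2, beside 14.8% and 3.82%. The genes with the smallest p of their lists in OVE-D6 against OVE were, beside Slc5a11, Slc2a5 (0.23, adjusted p = 0.339), Nfat5 (-0.14, adjusted p = 0.414), Xylb (0.16, adjusted p = 0.404) and Akr1b10 (-0.18, adjusted p = 0.432). In D6 against FVB they were Rgn (0.33), Inpp1 (0.21), Nfat5 (-0.20), Slc2a5 (0.17) and Akr1b10 (0.02), each with adjusted p = 1. For the interaction limma called 0 of the 28, beside 0% of all tested genes, with 1 at an unadjusted p under 0.05, beside 9.99%. The smallest p of each list there belonged to Inpp1 (-0.35, adjusted p = 0.452), Rgn (-0.33, adjusted p = 0.512), Mlxipl (0.26, adjusted p = 0.598), Akr1b10 (-0.19, adjusted p = 0.712) and Hspa4l (-0.21, adjusted p = 0.783). Rgn lay under 5.94 in all 4 groups, at means from 5.08 to 5.41, so its differences are of uncertain size.

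The genes most like each member were read from Pearson's r of log2 values over the 12 arrays among 14945 named genes, as a description. For Akr1b8 they were Pmp22, a myelin and epithelial membrane protein gene (r = 0.984), Lrg1, a secreted glycoprotein gene (r = 0.958), and Hells, a chromatin helicase gene (r = 0.954). For Miox they were Stard4, a cholesterol carrier gene (r = 0.984), Atp2b2, a calcium pump gene (r = 0.949), and Atp6v1b1, the proton pump subunit gene of intercalated cells (r = 0.941). For Khk they were Ndufv2 and Ndufb5, complex I subunit genes (r = 0.964 and 0.960), and Rcl1, a ribosomal RNA processing gene (r = 0.931), though Rcl1 had a rank correlation of 0.692. For Slc5a3 they were Ctnnal1, an alpha-catenin relative (r = 0.948), Dnm3, a dynamin gene (r = 0.888), and Utrn, the utrophin gene (r = 0.882). The arrays share group differences, and after each group's mean was taken off, r lay between 0.806 and 0.982 for these 12 pairs. The highest of so many coefficients is bound to be large.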

How the data were processed

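Expression was measured in 12 kidneys on Affymetrix mouse gene arrays, with 100 ng of RNA each (integrity above 8.8), per the labels' protocols. The deposited table holds log2 values, 1 for each probe set on each array. The authors' summarisation and normalisation are not given in the sources used here. Array medians lay between 6.84 and 6.93, so the values were used as they stand.

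Of 35556 probe sets, 21789 had 1 gene symbol, 1621 several and 12146 none here. Platform symbols were updated by Entrez identifier through the GRCm38.p6 gene table. The highest-mean probe set stood for a gene, giving 19936 genes, and the 16480 whose value passed the array's 25th percentile on 3 or more arrays were tested.

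All 12 arrays entered 1 limma 3.58.1 fit in R 4.3.3 (group means, 8 residual degrees of freedom before moderation, eBayes, Benjamini-Hochberg over 16480 genes, threshold 0.05). The 6 comparisons were OVE against FVB, OVE-D6 against D6, OVE-D6 against OVE, D6 against FVB, their interaction and the averaged diabetes effect. The scripts were tested on simulated data. The members and lists were chosen with earlier results of these data known. In each comparison the 4 members were named, with up to 4 called genes per list or, where none passed, the one with the smallest p. For likeness the 3 genes with the highest r were named, without predicted genes. Alternatives changed the filter, scaling, probe-set rule, variance model, weights, block, groups, threshold and arrays. Replicate numbers were taken from the titles and were not used to pair the mice in the main fit. Figures used Python 3.11.15 and matplotlib 3.10.9.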

Additional observations from a re-analysis of the deposited data

How the results depend on the processing

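Over 538 results of the 4 members under alternatives, 502 kept their direction and side of the threshold, 18 lost a call, 9 gained one and 9 changed sign. The members called numbered 2 instead of 1 in OVE against FVB, by the addition of Miox, with quantile normalisation, trended and robust variances, array weights, a threshold of 0.1, or without OVE replicate 3 and OVE-D6 replicate 3 together (a choice made after seeing the data). With the 50th percentile filter Akr1b8 was no longer tested, so the count of 1 there was Miox. In the averaged effect they numbered 1 instead of 2 with no filter, the 50th percentile filter, median centring or the replicate block, and in OVE-D6 against OVE 1 instead of 0 without those arrays. The member lost from the averaged effect was Miox, except with the 50th percentile filter. Of the 28 pathway genes, 1 instead of 0 was called in OVE against FVB with that filter, trended and robust variances, a threshold of 0.1 or without both arrays, and 0 to 3 with 1 array left out. In the averaged effect 4 instead of 3 were called with that filter or without both arrays, 5 with trended variances or the replicate block, 6 at 0.1 and 3 to 5 with 1 array left out. With 1 array left out they ranged from 1 to 2 in OVE against FVB, 0 to 1 in OVE-D6 against OVE and 0 to 2 in the averaged effect, and stayed at 0 in the other comparisons. The sign changes all came with 1 array left out and near 0, in ranges of -0.43 to 0.03 and -0.15 to 0.08 (Slc5a3, OVE against FVB and averaged), -0.19 to 0.04 (Slc5a3, OVE-D6 against OVE), -0.08 to 0.04 (Khk, D6 against FVB) and -0.08 to 0.05 (Khk, averaged).

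Genes called over the whole table ranged, with 1 array left out, from 359 (without OVE replicate 2) to 1901 (without OVE replicate 3) in OVE against FVB, 17 to 74 in OVE-D6 against D6, 1 to 668 in OVE-D6 against OVE, 2 to 3 in D6 against FVB, 0 to 377 in the interaction and 657 to 1916 in the averaged effect, each highest count but that in D6 against FVB coming without OVE replicate 3 alone. Array weights gave 87, 91 and 4 in OVE-D6 against D6, OVE-D6 against OVE and D6 against FVB, and trended variances 76 in the first. The fit of 2 groups alone gave 440 in OVE against FVB, 0 in OVE-D6 against OVE and 1 in D6 against FVB. A threshold of 0.1 gave 2206, 112, 151 and 2091 in OVE against FVB, OVE-D6 against D6, OVE-D6 against OVE and the averaged effect. Without OVE replicate 3 and OVE-D6 replicate 3 together the counts were 26, 636 and 409 in OVE-D6 against D6, OVE-D6 against OVE and the interaction. The replicate block gave 29 and 7 in OVE-D6 against D6 and OVE-D6 against OVE. After each group's mean was taken off, 2 of 18 same-numbered pairs of arrays correlated above 0.1 (-0.25 to 0.12). With 3 arrays per group this cannot exclude a shared origin of same-numbered mice. The causes of these changes were not tested. Precision is limited by 3 mice per group, and for Akr1b8 by a signal near background.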
